A study of Mus musculus with 24 samples.

Results

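The miR-200 family was followed here through its 3p strands, mmu-miR-200a-3p, mmu-miR-200b-3p, mmu-miR-200c-3p, mmu-miR-141-3p and mmu-miR-429-3p (written without the mouse prefix from here on), in mouse liver RNA of good and of compromised quality. These 5 of the 1881 mouse miRNAs on the array were taken by name. RNA came from the livers of 3 mice (numbered 7, 9 and 10 in the labels) and was hybridized to 24 one-colour arrays, 1 per mouse in each of 8 groups. Strain, sex and age of these 3 animals are not used here, and the parts of 1 liver were the only source for all groups of that mouse.

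In 4 groups total RNA including small RNAs was isolated, from fresh liver (0 h) or from liver left for 96 h at room temperature, in each case with or without on-column DNase digestion. In the other 4 groups DNase-treated RNA depleted of small RNAs was isolated from fresh liver. It was hybridized without further treatment, or after an incubation with 0 U, 0.026 U or 0.67 U of RNase. The depletion was a column procedure that leaves some small RNA behind, so these groups are poor in miRNAs rather than free of them. The RNA integrity number (RIN, a score that falls as RNA degrades) was 8.8 to 9 in fresh RNA with small RNAs and 2.3 to 2.5 after 96 h. In depleted RNA it was 9 to 9.4 without RNase, 6 to 7 at 0.026 U and 2.4 to 2.9 at 0.67 U.

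Members of the miR-200 family are a hallmark of epithelial cells, where they hold down the transcription factors Zeb1 and Zeb2 and so help to keep the epithelial state. In liver they are known from the cells that line the bile ducts, the cholangiocytes, which are few beside the hepatocytes. A miRNA is cut as a duplex from a hairpin precursor, and its 5′ end, the seed, pairs with target mRNAs. One strand of the duplex (here 3p) is usually kept and the other (here 5p) usually lost.

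The 5 genes lie in 2 clusters. On the mouse assembly GRCm38.p6, Mir429, Mir200a and Mir200b lie within 1846 bases on the minus strand of chromosome 4 (hairpins at chr4:156053905-156053987, chr4:156054896-156054985 and chr4:156055681-156055750). Mir141 and Mir200c lie within 477 bases on the minus strand of chromosome 6 (chr6:124717914-124717985 and chr6:124718322-124718390). All are annotated as miRNA genes. The mature 3p sequences (RefSeq, all 5 matched by name) are shown because the strands differ by few bases and fall into 2 seed groups, with the seed, bases 2 to 8 from the 5′ end, in capitals:
miR-200b-3p: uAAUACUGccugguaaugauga
miR-200c-3p: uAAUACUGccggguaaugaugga
miR-429-3p: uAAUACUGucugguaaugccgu
miR-200a-3p: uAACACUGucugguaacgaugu
miR-141-3p: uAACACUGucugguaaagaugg

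The seeds of the 2 groups differ at 1 base, written U4C from miR-200b-3p to miR-141-3p with positions counted from the 5′ end. Across their first 22 bases miR-200a-3p and miR-141-3p shared 20, and so did miR-200b-3p and miR-200c-3p. Each of these pairs joins a strand from chromosome 4 with 1 from chromosome 6. The least alike pairs, such as miR-200c-3p and miR-429-3p, shared 17 of 22. Of the 1881 array miRNAs, 1608 were matched to a mature sequence, and 0 of those outside the family carried either seed. Each 3p strand was measured by 2 probes of 15 spots. How far a probe for 1 strand also binds its near-identical relative was not tested.

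The first question was on which arrays the family gave a signal. The scanner software flags a miRNA as detected where at least 1 of its probes exceeds 3 times its own error. By this flag miR-200a-3p and miR-200b-3p were detected on 6 of 24 arrays, which were the 3 fresh arrays with and the 3 fresh arrays without DNase. They were flagged on 0 of the 6 arrays from tissue stored for 96 h and on 0 of the 12 arrays of depleted RNA. miR-429-3p was detected on 2 arrays, both fresh (mouse 9 with DNase and mouse 10 without). miR-200c-3p and miR-141-3p were detected on 0 of 24 arrays. The family was therefore seen in part, through its chromosome 4 cluster, and the chromosome 6 cluster gave no flagged signal in any group. Arrays after 96 h held more detected miRNAs in all, 582 to 707, against 273 to 342 on fresh arrays, 186 to 238 in depleted RNA without RNase and 255 to 408 with it.

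Signals are given next as the sum of both probes, background subtracted and before any scaling between arrays. In fresh DNase-treated RNA miR-200a-3p stood at 3.72 in mouse 7, 5.06 in mouse 9 and 4.78 in mouse 10, and without DNase at 5.17, 7.66 and 7.51. After 96 h it stood at 0.445, -0.133 and 2.05 with DNase, and at 1.99, 2.17 and 2.76 without. On the 12 depleted arrays it lay between -0.747 and 0.00677, with a median of -0.28. Each fresh array was thus brighter than every stored and every depleted array, and the depleted arrays lay at the level of the background.

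For miR-200b-3p the fresh arrays read 4.02, 5.57 and 3.97 with DNase and 4.69, 6.83 and 6.00 without, in mice 7, 9 and 10. After 96 h the signals were -1.02, -0.699 and 1.497 with DNase and -0.00343, 0.351 and 1.06 without. The 12 depleted arrays ran from -0.236 to 1.42 with a median of 0.692. Again the fresh arrays overlapped with none of the others, while the stored and the depleted arrays overlapped with each other. Among depleted arrays mouse 10 was the lowest in each of the 4 groups, from -0.236 to -0.0042.

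miR-429-3p, the third strand of the chromosome 4 cluster, gave weak signals in the same order. It read 2.48, 2.97 and 1.87 in fresh DNase-treated RNA and 2.52, 3.18 and 3.18 in fresh RNA without DNase. The stored arrays lay between -0.344 and 1.14 and the depleted arrays between -0.151 and 0.722. The fresh arrays did not overlap with either, although 4 of the 6 were not flagged as detected.

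miR-141-3p had no such order. Fresh arrays lay between -0.0692 and 1.08, depleted arrays between -1.18 and -0.549, and stored arrays between -0.586 and 5.31. The highest value came from 1 array, mouse 7 after 96 h with DNase, where its probes read 2.61 and 2.70 and stayed below their detection limits. In the same group mouse 9 read 1.63 and mouse 10 read -0.586. miR-200c-3p was below 0 on all 24 arrays, between -0.836 and -0.073 on fresh, between -1.85 and -0.323 on stored and between -1.37 and -0.489 on depleted arrays, so no level can be given for it.

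**Figure D1:**
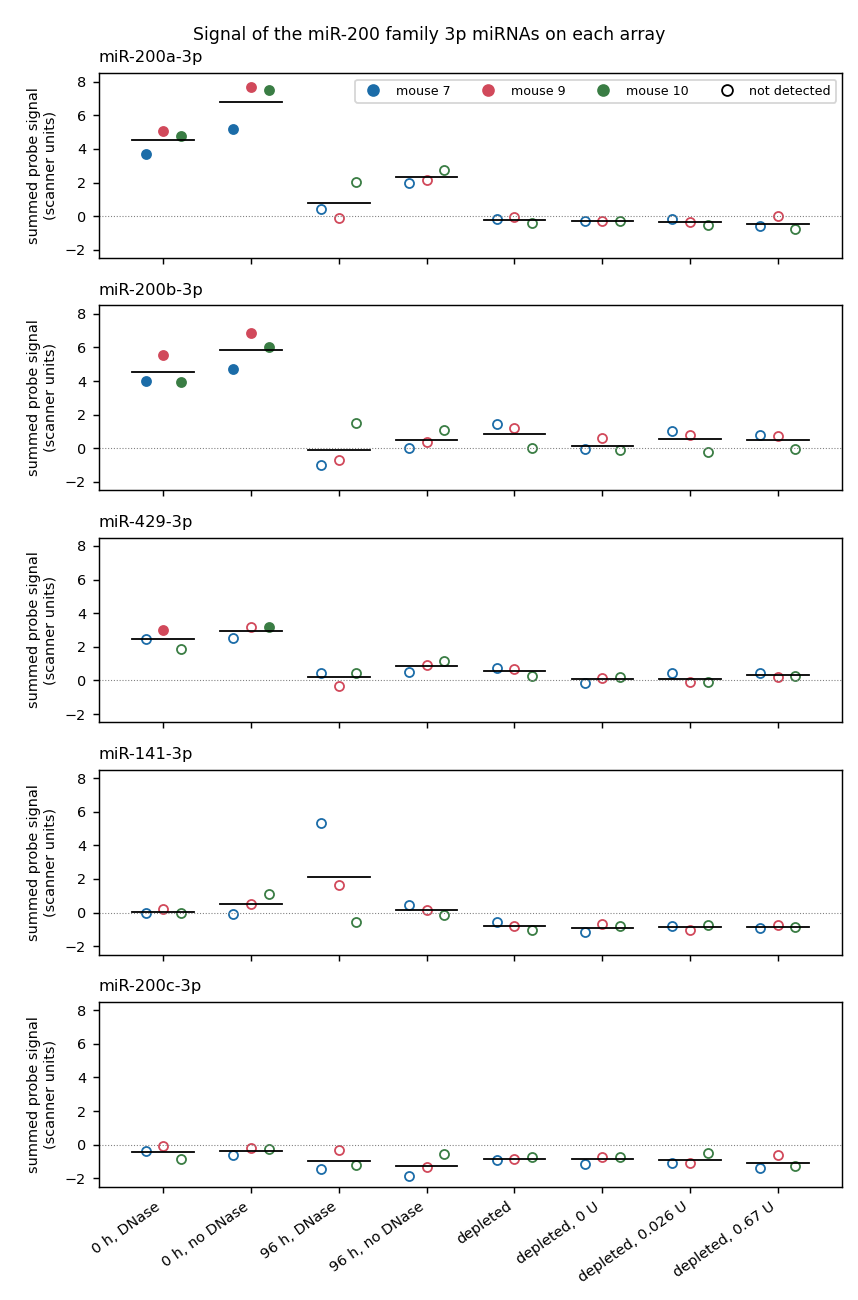
Sum of both probe signals (scanner units, not scaled between arrays) of the 5 miR-200 family 3p miRNAs on each of the 24 arrays, with the group on the horizontal axis, 1 point per mouse and a line at the mean of 3; filled points were flagged as detected. miR-200a-3p, miR-200b-3p and miR-429-3p lie higher on all 6 fresh arrays than on the other 18, and miR-141-3p and miR-200c-3p have no filled point.

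The groups were ordered by mean signal. For miR-200a-3p the order was fresh without DNase (6.78 ± 1.40, SD, n = 3), fresh with DNase (4.52 ± 0.704), 96 h without DNase (2.31 ± 0.405), 96 h with DNase (0.789 ± 1.13) and then the 4 depleted groups, from -0.21 to -0.444. The first 3 neighbours in this order did not overlap, and from the third group on each group overlapped with the next. For miR-200b-3p fresh RNA without DNase (5.84 ± 1.08) and with DNase (4.52 ± 0.911) overlapped with each other and with no other group, and the 6 other groups, from 0.866 to -0.0737, overlapped from one to the next. The order for miR-429-3p also opened with fresh RNA without DNase (2.96 ± 0.381) and with DNase (2.44 ± 0.55), which overlapped with each other and with no other group.

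The detection limit itself was not the same on all arrays, because the error of a probe was larger after storage. The median probe error was 0.50 to 0.595 on fresh and 0.903 to 1.05 on stored arrays, and the limit for the brighter probe of miR-200a-3p was 1.79 to 2.35 on fresh and 2.74 to 3.17 on stored arrays. That probe read 2.48 to 5.07 when fresh and 0.272 to 1.94 after storage. All 6 stored signals were below the stored limits, and the highest, 1.94 in mouse 10 without DNase, lay above the lowest of the fresh limits. The brighter probe of miR-200b-3p read 2.83 to 5.17 when fresh and -0.291 to 1.44 after storage, below the 1.84 to 2.37 that was the limit on fresh arrays. The dimmer probe of miR-200a-3p passed its limit on 5 of 6 fresh arrays, that of miR-200b-3p on 1 of 6, and each probe of miR-429-3p on 1 of 6.

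Spots flagged as well above background gave a further view that does not use the probe error. Of 180 spots on the fresh arrays 83 were so flagged for miR-200a-3p and 74 for miR-200b-3p, against 0 of 180 on stored and 0 of 360 on depleted arrays for both. Among negative control spots the share was 0 to 0.75% per array. miR-429-3p had 0 such spots on fresh and 1 on stored arrays.

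**Figure D2:**
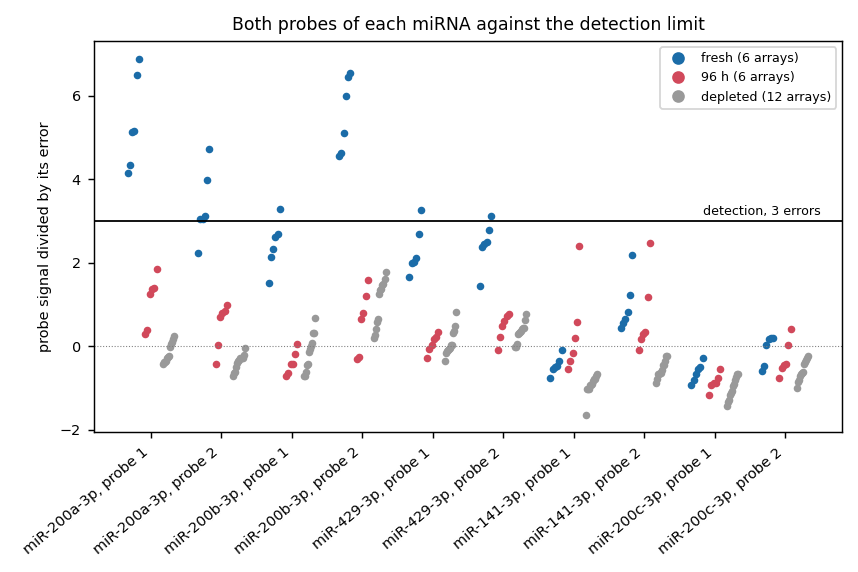
Signal of each of the 2 probes of the 5 miRNAs divided by its error (vertical axis), with 1 point per array: 6 fresh, 6 stored for 96 h and 12 depleted of small RNAs; the horizontal line marks the detection limit of 3 errors. The upper probe of miR-200a-3p and of miR-200b-3p passes the line on all 6 fresh arrays, and no stored or depleted array passes it for any probe.

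With a single level set on each array (the 95th percentile of the miRNAs detected nowhere) in place of the flag, miR-200a-3p passed on 9 arrays, miR-200b-3p on 11, miR-429-3p on 6 and miR-141-3p on 2. All 6 fresh arrays were among them for the first 3. The further arrays for miR-200a-3p were 1 at 96 h with and 2 at 96 h without DNase. For miR-200b-3p they were 1 at 96 h with DNase and 4 of depleted RNA (1 untreated, 0 at 0 U, 1 at 0.026 U and 2 at 0.67 U). miR-141-3p passed on 1 fresh and 1 stored array, and miR-200c-3p on 0.

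The next question was how storage changed the family. Both members that could be tested fell: miR-200a-3p and miR-200b-3p were lower after 96 h in RNA with and without DNase, and in all 3 mice each time. The groups were compared with limma on signals normalized by vsn, a variance stabilizing method whose glog2 scale equals log2 for bright miRNAs, over the 631 miRNAs detected on at least 5 of 24 arrays. Calls needed a Benjamini-Hochberg adjusted p below 0.05 and a difference of 1 or more in glog2. In DNase-treated RNA miR-200a-3p changed by -2.94 ± 0.50 (SE, adjusted p = 1.76e-05 by limma), with -2.57, -4.21 and -2.03 in mice 7, 9 and 10. miR-200b-3p changed by -3.48 ± 0.60 (adjusted p = 1.91e-05 by limma), with -4.17, -4.52 and -1.75. Mouse 10 showed the smallest decrease of both.

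Without DNase the decreases were more even between animals. miR-200a-3p changed by -2.71 ± 0.50 (adjusted p = 4.69e-05 by limma), with -2.53, -2.81 and -2.78 in mice 7, 9 and 10. miR-200b-3p changed by -3.27 ± 0.60 (adjusted p = 4.12e-05 by limma), with -3.28, -3.31 and -3.22. The storage change did not pass the test of a difference between RNA without and with DNase, at 0.23 ± 0.71 for miR-200a-3p and 0.21 ± 0.85 for miR-200b-3p (adjusted p = 0.922 and 0.943 by limma), a comparison in which 1.11% of the 631 miRNAs were called.

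Both members were thus lower, where 21.6% of the 631 miRNAs were called lower with DNase and 23.0% without. These 2 passed the filter solely through the fresh arrays, where they were high. The filter itself thus favoured a decrease, and their count is no evidence about the family. Over all 631 miRNAs, which the filter selected, the median change was 2.47 with DNase and 2.16 without. Over all 1881 miRNAs it was -0.0032 with DNase and 0.15 without. Total signal was higher after storage as well, 187378 to 362324 against 55237 to 163493 intensity units. vsn scaled the stored arrays down, with mean log2 scale factors of -1.43 with DNase and -1.30 without. On fresh arrays these factors were 0.40 and 0.38. Depleted arrays without RNase had totals of 7125 to 10043 and factors of 0.47 untreated and 0.77 at 0 U. What set the factors was not tested. Without any scaling the changes were -1.60 and -1.66 with DNase and -1.22 and -2.03 without, for miR-200a-3p and miR-200b-3p. These are log2 values of the signal plus 1, with negative signals set to a floor. They therefore differ from the glog2 changes in the transform as well as in the scaling. In RNA of a whole tissue, fewer cells of a type and less of the miRNA per cell cannot be told apart.

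Since neither was detected after storage, a fold can be given only as a lower bound. It sets the fresh mean of the brighter probe against the detection limit of the same probe on the stored arrays (means of log2 values). After vsn scaling the fresh arrays were at least 3.499-fold brighter than that limit for miR-200a-3p and at least 4.03-fold for miR-200b-3p with DNase, and at least 4.68-fold and 4.54-fold without. Before scaling the bounds were at least 1.46-fold and 1.42-fold without DNase and at least 1.14-fold for miR-200b-3p with DNase. No unscaled bound can be given for miR-200a-3p with DNase, whose brighter probe averaged 2.87 when fresh against a mean limit of 2.90 on the stored arrays.

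**Figure D3:**
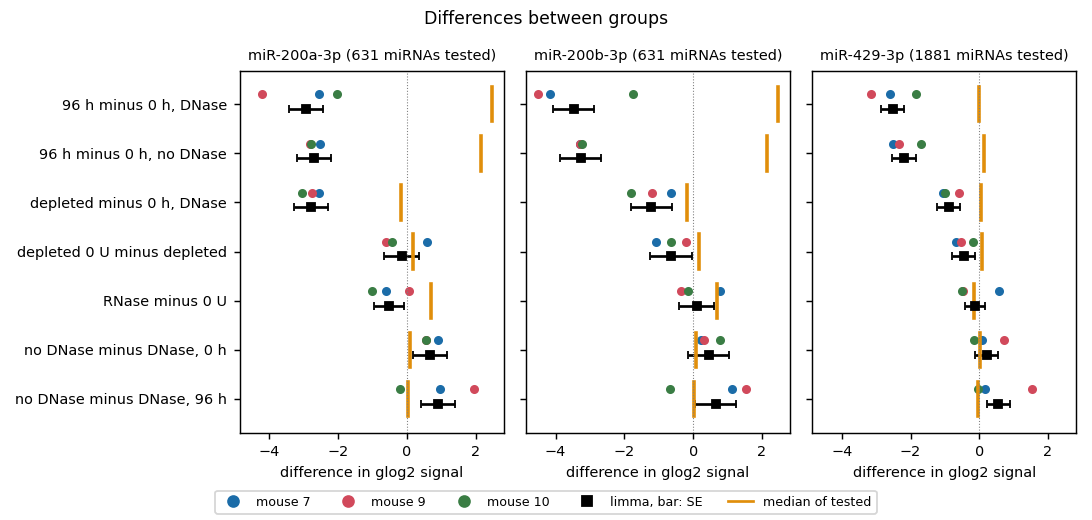
Differences between groups (glog2 signal, horizontal axis) of miR-200a-3p, miR-200b-3p and miR-429-3p in 7 comparisons: coloured points are the mice, black squares the limma estimate with its SE, and orange marks the median of all miRNAs tested in that fit. All mice lie left of 0 for both storage comparisons and for depletion, and on both sides of 0 for RNase and for DNase at 96 h.

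The 3 remaining members were detected on fewer than 5 arrays and were tested only in a fit over all 1881 miRNAs. There miR-429-3p was lower after storage by -2.52 ± 0.34 with DNase and -2.19 ± 0.34 without (adjusted p = 1.57e-06 and 1.08e-05 by limma), and in all 3 mice in both. In this fit 29.7% of the miRNAs were called lower with DNase and 27.6% without, and among the 1250 miRNAs detected on fewer than 5 arrays the shares were 33.9% and 30%. miR-141-3p changed by 0.05 ± 0.48 with DNase (adjusted p = 0.938 by limma) and by -1.31 ± 0.48 without (adjusted p = 0.0223 by limma). For miR-200c-3p the changes were -0.58 ± 0.75 and -1.65 ± 0.75 (adjusted p = 0.51 and 0.0619 by limma). Neither was detected on any array compared, and the call of miR-141-3p was lost under 5 of 7 other scalings tried without the filter.

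The size of the changes of miR-200a-3p and miR-200b-3p depended on the scaling and on the transform used with it. Spike-in, percentile, quantile and unscaled values were log2 of the signal plus 1, with negative signals set to a floor. Over 9 scalings miR-200a-3p changed by -4.11 to -1.60 with DNase and by -4.51 to -1.22 without, and was lower than the median of the 631 miRNAs each time, by at least 0.70 and 0.67. miR-200b-3p changed by -4.16 to -1.66 with DNase and by -4.82 to -1.74 without, and lay at least 0.72 and 0.69 below the median. Both passed the filter solely through the fresh arrays, and the 631 miRNAs were selected by the same filter. Their place below this median is therefore no evidence about the family. The smallest distances from the median were those after a normexp background correction of the spots. This setting also adds a constant to every spot and aligns the arrays at the 75th percentile of the miRNAs detected on all arrays. Under it the median itself fell by 1.71 with DNase and by 1.05 without.

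**Figure D4:**
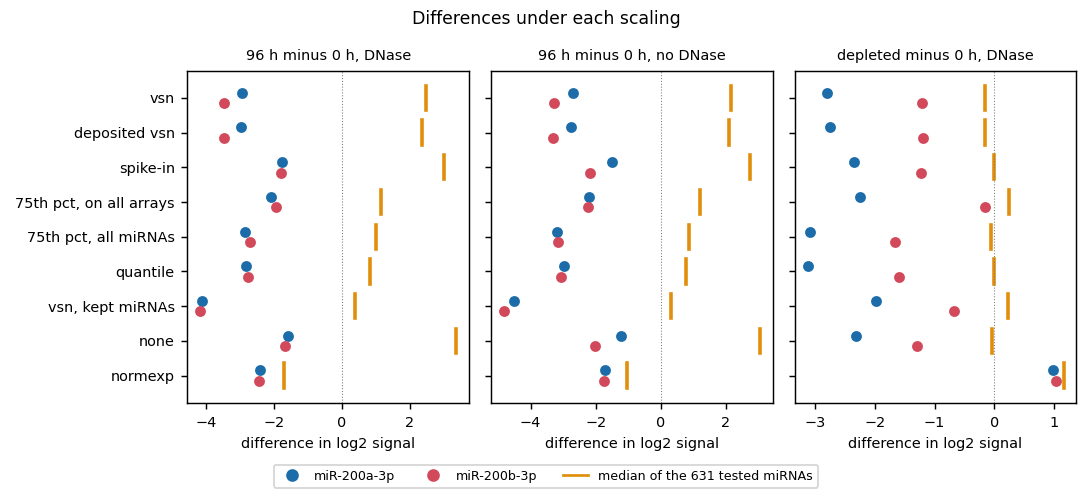
Change of miR-200a-3p and miR-200b-3p (points, log2 scale, horizontal axis) and median change of the 631 miRNAs tested (orange marks) under 9 ways to scale the arrays (vertical axis), for the 2 storage comparisons and for depletion. Both miRNAs lie below 0 and left of the median under all 9 for storage, a position that the filter favoured. For depletion normexp puts both above 0, at 0.97 and 1.03, and left of a median of 1.16.

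The 5p strands of the same hairpins were on the array as well. miR-200a-5p and miR-200b-5p share the seed AUCUUAC, which differs from that of the 3p strands, and are printed because they moved the other way from their 3p partners (miR-200a-5p at chr4:156054949-156054970 and miR-200b-5p at chr4:156055721-156055742 on GRCm38.p6, minus strand):
miR-200a-5p: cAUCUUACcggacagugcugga
miR-200b-5p: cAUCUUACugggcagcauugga

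Neither was detected on any fresh or depleted array, and both were detected on 2 of the 24 arrays, those of mice 7 and 9 after 96 h with DNase. There the summed signal of miR-200a-5p was 7.07 and 13.1, against 1.82 in mouse 10 of the same group and 1.72, 1.75 and 2.05 in the stored RNA without DNase. Its 6 fresh arrays lay between -1.27 and -0.439. miR-200b-5p read 7.96 and 15.8 in mice 7 and 9 and -0.281 in mouse 10, then 0.705, 0.841 and 0.657 without DNase, and -1.51 to -0.88 on fresh arrays. All 6 stored arrays were thus above all 6 fresh arrays for both 5p strands, the reverse of the 3p strands. In 1 of 3 mice, mouse 10, the stored DNase-treated array was low for both 5p strands and for miR-141-3p, and it held the highest stored signals with DNase for miR-200a-3p and miR-200b-3p.

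**Figure D5:**
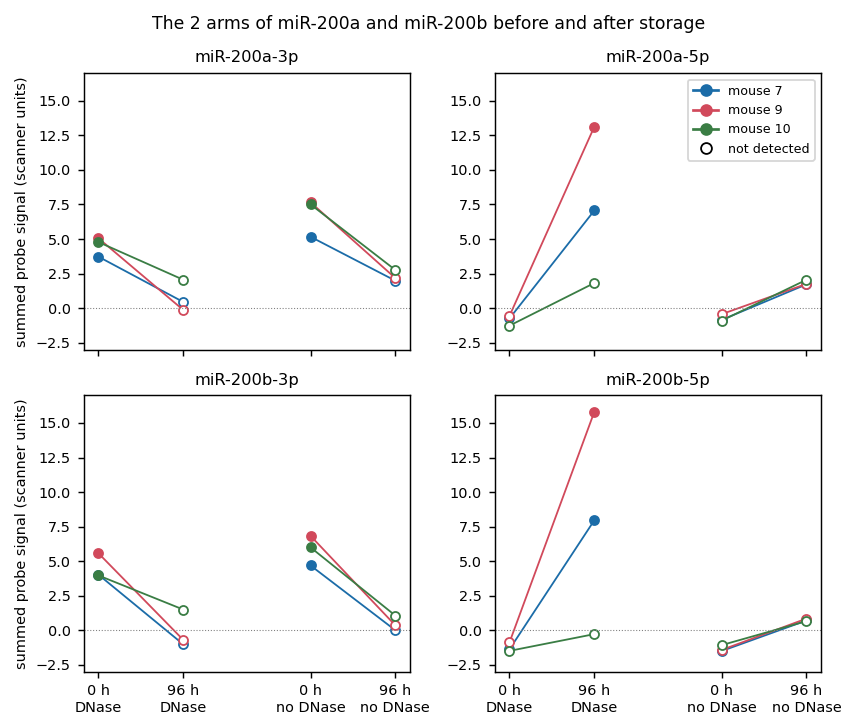
Summed probe signal (scanner units) of the 3p and 5p strands of miR-200a and miR-200b before and after 96 h of storage, with and without DNase; lines join the arrays of 1 mouse and filled points were flagged as detected. Every line falls for the 3p strands and rises for the 5p strands, and the 5p strands are detected in mice 7 and 9 after 96 h with DNase.

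In the fit without the filter miR-200a-5p rose with storage by 4.72 ± 0.77 with DNase and 2.79 ± 0.77 without (adjusted p = 1.91e-05 and 0.00346 by limma). miR-200b-5p rose by 5.72 ± 0.73 and 4.52 ± 0.73 (adjusted p = 7.51e-07 and 1.63e-05 by limma), and miR-141-5p by 1.58 ± 0.67 and 2.60 ± 0.67 (adjusted p = 0.041 and 0.00188 by limma). So 3 of 5 5p strands were called higher, where 34.9% of the 1881 miRNAs were called higher with DNase and 32.8% without. Of 64 values for the called changes of 5p strands under other settings, the RNase changes included, 23 kept the call, 34 lost it and 7 turned sign. The sizes are changes from signals below 0 and rest on the glog2 scale: with arrays scaled to the 75th percentile of all miRNAs, negative signals being set to the floor, they were 1.04 and 0.45 for miR-200a-5p, 0.94 and 0.20 for miR-200b-5p and 0.06 and 0 for miR-141-5p. miR-200c-5p and miR-429-5p were detected on 0 arrays and not called in either storage comparison.

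DNase digestion was compared within fresh and within stored RNA. In fresh RNA all 3 mice were brighter without DNase, by 0.68 ± 0.50 for miR-200a-3p and 0.45 ± 0.60 for miR-200b-3p, and neither passed the test (adjusted p = 0.991 by limma for both). These SEs are pooled over all groups and do not use the pairing by mouse. In mice 7, 9 and 10 miR-200a-3p stood at glog2 2.06, 2.97 and 2.78 with DNase and 2.97, 3.53 and 3.35 without. For miR-200b-3p the values were 2.21, 2.70 and 2.26 with DNase and 2.45, 3.03 and 3.05 without. Not passing is therefore no evidence that DNase made no difference. Of the 631 miRNAs 0 were called in this fresh comparison in either direction. After 96 h the difference was 0.91 ± 0.50 and 0.66 ± 0.60 (adjusted p = 0.304 and 0.526 by limma), positive in mice 7 and 9 and negative in mouse 10, where 10.8% of the miRNAs were called. Without mouse 10, miR-200b-3p passed at 1.33 (adjusted p = 0.0358 by limma), where 72 of the 631 miRNAs were called lower and 80 higher. With arrays left unscaled, miR-200a-3p passed at 1.004 (adjusted p = 0.0285 by limma), where 47 were called lower and 40 higher.

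Depletion of small RNAs was compared in fresh DNase-treated RNA. miR-200a-3p was lower in depleted RNA by -2.79 ± 0.50 (adjusted p = 0.000124 by limma), with -2.55, -2.77 and -3.05 in mice 7, 9 and 10 after vsn. The brighter probe of the fresh arrays was at least 1.41-fold above its limit on the depleted arrays. Both members passed the filter solely through fresh arrays, which are the bright side here as well. The filter itself thus favoured a decrease, and the test is no evidence about the family. miR-200b-3p was lower in all 3 mice (-0.63, -1.20 and -1.81), and its change of -1.21 ± 0.60 did not pass the test (adjusted p = 0.149 by limma). Of the 631 miRNAs 24.4% were called lower, with a median change of -0.17. The miR-200b-3p call depended on the handling of its signal: it passed with the probes summed on every array (-1.57, adjusted p = 0.0452 by limma) and under 5 of the other settings, among them no scaling (-1.30, adjusted p = 0.0214 by limma) and spike-in scaling (-1.23, adjusted p = 0.0268 by limma). The normexp correction turned both changes to above 0, as it did the median of all miRNAs.

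In the fit over all 1881 miRNAs, where 9.99% were called lower with depletion, miR-141-3p was called lower by -2.22 ± 0.48 (adjusted p = 0.00196 by limma), while miR-429-3p at -0.89 ± 0.34 (adjusted p = 0.0845 by limma) and miR-200c-3p at -1.20 ± 0.75 (adjusted p = 0.348 by limma) were not. The call of miR-141-3p compares fresh signals of -0.0357 to 0.193 with depleted signals of -1.02 to -0.549, none detected, and with negative signals set to a floor its change was between -0.15 and -0.08 under 5 scalings. For miR-429-3p, whose fresh arrays were all above the depleted ones, the change passed with its probes summed on every array (-1.07, adjusted p = 0.0212 by limma) and was above 0 under 2 other scalings.

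Incubation of depleted RNA was compared next, first without enzyme and then with it. The incubation at 0 U changed miR-200a-3p by -0.16 ± 0.50 and miR-200b-3p by -0.64 ± 0.60 (adjusted p = 0.992 by limma for both), where 1.74% of the miRNAs were called. RNase at both doses together, against 0 U, changed miR-200a-3p by -0.51 ± 0.43 (adjusted p = 0.391 by limma) and miR-200b-3p by 0.10 ± 0.52 (adjusted p = 0.933 by limma). In this comparison 44.7% of the 631 miRNAs were called, all of them higher. The median of all rose by 0.69, and the 3p strands of the family were not flagged as detected at any dose. By the single level set on each array, miR-200b-3p passed on 0 arrays at 0 U, 1 at 0.026 U and 2 at 0.67 U. Summed signals at 0.026 U were -0.503 to -0.179 for miR-200a-3p and -0.236 to 1.05 for miR-200b-3p. At 0.67 U they were -0.747 to 0.00677 and -0.0495 to 0.774. The dose labels of mouse 9 contradict each other, and the ranges and array counts at both doses follow its sample descriptions. For both miRNAs these ranges overlapped with those at 0 U, which ran from -0.283 to -0.273 and from -0.124 to 0.628. When vsn was fitted on the 631 miRNAs alone, both were called lower with RNase, at -1.88 and -1.20 (adjusted p = 0.000193 and 0.0209 by limma). Under that scaling 33.9% of the 631 miRNAs were called lower and the median of all was at -0.49.

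Without the filter miR-200b-5p was called higher with RNase by 4.51 ± 0.63 (adjusted p = 1.16e-05 by limma, among 18.3% of 1881 miRNAs called higher) and miR-200c-5p lower by -2.05 ± 0.57 (adjusted p = 0.0119 by limma, among 1.70% called lower). Neither was detected on those arrays. The summed signal of miR-200b-5p went from -1.96 to -0.996 at 0 U to between -0.725 and 0.984 with RNase, and both calls were lost once negative signals were set to a floor.

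Other epithelial miRNAs served for comparison. Of 9 such miRNAs, 3 were detected on at least 5 arrays: miR-203-3p, known from skin and other squamous epithelia, miR-31-5p and miR-96-5p. All 3 were called lower in both storage comparisons, with a median change of -3.79 with DNase and -3.80 without, where 21.6% and 23.0% of the 631 miRNAs were called lower. miR-96-5p passed the filter through the fresh arrays alone. mmu-miR-203-3p changed by -3.97 with DNase, mmu-miR-31-5p by -3.79 and mmu-miR-96-5p by -2.31 (adjusted p = 2.35e-08, 3.99e-07 and 0.000319 by limma). mmu-miR-203-3p and mmu-miR-31-5p were also called lower with depletion, by -3.89 and -2.48. miR-205-5p, miR-375-3p, miR-182-5p, miR-183-5p, miR-34c-5p and miR-449a-5p were detected on 0 arrays.

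The decrease was not confined to epithelial miRNAs. mmu-miR-122-5p, the dominant miRNA of hepatocytes, was detected on all 24 arrays and was called lower with storage by -3.08 ± 0.49 with DNase and -2.93 ± 0.49 without, and with depletion by -1.79 ± 0.49. All 3 hepatocyte miRNAs of the list (with miR-192-5p and miR-194-5p) and both endothelial ones (miR-126a-3p and miR-126a-5p) were called lower in the storage comparisons. Of 4 tested immune miRNAs 3 were lower and 1 higher, and of 3 erythroid miRNAs 2 were lower and 1 higher. Among the immune ones, miR-142a-5p passed the filter through the fresh arrays alone. Of the 4 stromal miRNAs 3 were lower with DNase and 4 without. The shares called lower over all 631 miRNAs were those given above (21.6% and 23.0%). These arrays do not place the family's signal in a cell type.

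The miRNAs whose glog2 signal followed that of miR-200a-3p most closely over the 24 arrays were miR-7a-5p, miR-362-3p and miR-1839-3p, with Pearson r of 0.956, 0.955 and 0.955. For miR-200b-3p they were miR-365-3p, miR-28a-5p and let-7f-5p, with 0.952, 0.933 and 0.927. These values describe arrays that share their mice and their 8 groups. miR-200a-3p and miR-200b-3p, from hairpins of 1 cluster, had r = 0.743 with each other. The nearest miRNAs were picked as the highest values among all tested miRNAs. Their lead over 1 cluster partner is therefore no evidence about the cluster. Those nearest to miR-200a-3p were detected on 8, 7 and 12 arrays, and those nearest to miR-200b-3p on 24, 6 and 24. The 3 nearest to miR-200a-3p changed by -2.98, -3.10 and -2.55 with storage and DNase and by -2.42, -2.61 and -3.03 with depletion. Those nearest to miR-200b-3p changed by -2.46, -3.30 and -5.12 with storage and by -1.19, -1.82 and -2.82 with depletion.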

How the data were processed

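Liver RNA of 3 mice was measured on 24 Agilent mouse miRNA arrays (8 groups of 3). Per the file headers, the deposited scanner files hold fluorescence intensity from Feature Extraction 10.10.1.1, background subtracted and not normalized between arrays. The authors also deposited a table of vsn-normalized log2 values, whose column medians run from -0.3725 to 0.022. Scale and direction were settled against the scanner files. The total gene signal there is the sum of those probes that exceed 3 times their error (100% of flags followed this rule), and the authors' values take this sum for detected miRNAs and the sum of all probes for others. Of the detected values 73.1% counted all probes.

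The members and lists were chosen with earlier results of these data known. vsn was rewritten in Python 3.11.15 (numpy 2.4.6, pandas 2.3.3, scipy 1.17.1) and differed from the deposited values by 0.0956 (SD). Of 1881 miRNAs, 631 were detected on at least 5 arrays. Group means were tested in limma 3.58.1 under R 4.3.3 (8 group means, trended variance, two-sided, Benjamini-Hochberg within each of 8 comparisons). The scripts were tested on simulated data. P-values rest on 1 spread per miRNA, that between the 3 arrays of a group, pooled over all 8 groups. The main fit holds no term for the mouse. The methods' rank test cannot pass 0.05 with 3 against 3 arrays. Precision is limited by the number of arrays. For mouse 9 the labels of both RNase doses contradict each other. Descriptions were followed, and the RNase comparison averages both doses, while ranges by dose depend on this choice. The RIN of mouse 9 goes with the descriptions, at 6 for 0.026 U and 2.4 for 0.67 U. Its total signal was 177642 at 0.026 U and 70313 at 0.67 U. In mouse 7 these totals were 37604 and 83451, and in mouse 10 they were 36325 and 168514, the opposite order.

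The lower bounds of folds were defined after the data were seen. Named were the 5 members, their 5p strands, other epithelial miRNAs detected on at least 5 arrays, miR-122-5p, the 3 nearest miRNAs by correlation for each tested member, and any array miRNA with a member's seed. Same-numbered arrays come from the same mouse, which pairs them: after group means were removed, residuals correlated at 0.0914 on average within and -0.0449 between mice. Between the fresh arrays with and without DNase of 1 mouse they correlated at 0.58, 0.22 and 0.42 in mice 7, 9 and 10. Slide and scan were the same for every array from 1 mouse and cannot be told apart from the animal. Alternatives were other scalings, filters, probe sums, a replicate block and leaving out each mouse. The array design names another genome build; positions come from RefSeq by name. Figures were drawn with matplotlib 3.10.9.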

Additional observations from a re-analysis of the deposited data

How the results depend on the processing

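The decreases of miR-200a-3p and miR-200b-3p with storage kept their direction in 76 of 76 values from 19 alternatives in 2 comparisons. Other filters, the compared groups alone, the replicate block and no variance trend leave the difference of means as it is. So do the other dose labels and the rank test, and in all of these the direction could not turn. The call was kept in 72 of the 76. Both miRNAs passed the filter solely through the fresh arrays, so these counts are no evidence about the family. Under normexp 447 of the 631 miRNAs were called lower with DNase and 338 without. The 4 lost calls were those of the methods' rank test, where 0 members were called with or without DNase and for depletion (adjusted p = 0.109 at the least over the storage comparisons; at 3 against 3 arrays the test cannot pass). With no filter, storage without DNase called 4 of 5 members lower, where 27.6% of the 1881 miRNAs were called lower. Depletion called 2, where 9.99% were called lower. Depletion also called 2 under spike-in scaling, quantile normalization, the 75th percentile over all miRNAs, no normalization, a fit of the compared groups alone and the sum of all probes (chosen after seeing the data, as were all scalings combined with no filter). With the filter, 130 to 171 of the 631 miRNAs were called lower under these settings. Under the normexp background 1 was called, in the opposite direction, with changes of 0.97 for miR-200a-3p and 1.03 for miR-200b-3p. There 503 of the 631 miRNAs were called higher, and the median of all 631 was 1.16. Without the filter normexp gave 1.16 for miR-200c-3p, 1.13 for miR-141-3p and 1.102 for miR-429-3p. The median of all 1881 miRNAs was then 1.16 as well, with 1751 called higher. RNase called 2 lower under vsn on the kept miRNAs, where miR-200b-3p was at -1.20 and 33.9% of the 631 miRNAs were called lower. DNase at 96 h called 1 without normalization, where 47 of the 631 miRNAs were called lower and 40 higher. It called 0 to 1 when each mouse was left out, the 1 being without mouse 10. There 72 were called lower and 80 higher.

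With the replicate block for the mouse no call of a member changed; the storage change of miR-200a-3p with DNase stayed at -2.94 (adjusted p = 3.53e-05 by limma), and 2 members were called in each storage comparison, 1 with depletion and 0 elsewhere.

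Changes that did not pass the test turned sign often. Under normexp the DNase differences at 0 h were -0.18 and -0.22 for miR-200a-3p and miR-200b-3p, the 0 U change of miR-200a-3p was 0.0041, and the RNase change of miR-200b-3p was -0.96. For RNase, miR-200a-3p was at 0.0019 (spike-in), 0.0025 and 0.0031 (75th percentile over the miRNAs that every array detected, and over all), 0.0485 (quantile) and 0.0016 (no normalization). For DNase at 96 h, miR-200b-3p was at -0.0072, -0.0398, -0.073 and -0.31 under both percentiles, quantile and vsn on the kept miRNAs. For the difference in storage change between DNase states these 4 gave -0.13, -0.33, -0.14 and -0.40 for miR-200a-3p and -0.29, -0.44, -0.33 and -0.66 for miR-200b-3p, with -0.38 (spike-in) and -0.36 (no normalization) for the latter. Leaving out single mice gave values from -0.35 to 0.72 and from -0.29 to 1.05 there, from -0.52 to 0.0708 for the 0 U change of miR-200a-3p, and from -0.24 to 0.33 for RNase and miR-200b-3p.

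Without the filter, miR-141-3p with storage and DNase was at -2.18 (normexp) and -0.0406 (deposited table), and miR-429-3p with depletion at 0.18 (the first of the percentiles). Of 64 values for the 5p strands 23 kept the call, 34 lost it and 7 turned sign, all 7 under normexp: -1.97 and -1.38 for miR-200a-5p, -1.94 and -1.39 for miR-200b-5p and -2.22 and -1.45 for miR-141-5p with storage, and -0.90 for miR-200b-5p with RNase. With normexp and no filter, the median of all 1881 miRNAs was -2.24 for storage with DNase, -1.48 without DNase and -0.97 for RNase. Of these miRNAs 1697 were called lower for storage with DNase and 1578 without DNase. The cause of the turned signs was not tested. Signals near the background of the arrays limit every member, and 3 arrays a group set the precision.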
